A study of Homo sapiens with 6 samples.

Results

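H460 is an established human non-small cell lung cancer (NSCLC) cell line grown from a large cell carcinoma, and its transcriptome was compared with those of H1299 and A549, the other NSCLC cell lines of the series. The H460 libraries are 2 of the 6 libraries and were chosen by the cell line named in the sample labels, H460 control and H460 si-MALAT1. Each of H1299 and A549 also has 1 control and 1 si-MALAT1 library, which gives 4 libraries for comparison. In the si-MALAT1 libraries the lncRNA MALAT1 had been targeted with a small interfering RNA by lipid transfection. The labels mark the controls only as not treated, whereas the methods describe both negative control cells and si-Control cells, so the controls are called control here. All lines came from the same cell bank, and every line is labelled NSCLC and tumor. No line has a replicate of the same treatment, so the spread between the libraries of a line includes the response to si-MALAT1, and each p-value measures the spread among these 6 libraries and not among independent cultures.

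Cell lines from lung tumors keep part of the expression program of the cell they arose from, and they add changes fixed by mutation and by DNA methylation. Lung adenocarcinoma cells often keep NKX2-1 and surfactant genes, squamous cells keep TP63 and basal keratins, and large cell carcinoma is defined by the lack of both programs. As background, H460 and A549 both carry inactivating STK11 and KEAP1 mutations, whereas H1299 carries an activating NRAS mutation.

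The deposited read counts summed to between 42506818 and 68515992 per library, and the H460 libraries held 68515992 and 65067040 reads. Of 46427 genes in the deposited table, 21771 passed the filter on low counts and were tested. MALAT1 had 231045 and 43858 reads in H460, against 407551 and 47935 in H1299 and 93747 and 14447 in A549, control before si-MALAT1, so the library labelled si-MALAT1 had fewer MALAT1 reads in each line. The 13 mitochondrially encoded genes took between 0.152% and 0.243% of the reads in every library, and none of them differed between H460 and each of the other lines. In the values below, the control precedes si-MALAT1, and TPM is the deposited transcript level, scaled for length and depth.

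The first comparison asked which genes set H460 apart from both other lines whatever the siRNA. All 6 libraries entered 1 edgeR quasi-likelihood fit, H460 against the other 4 with treatment as a covariate, so that the difference between H1299 and A549 counted as spread.  At an adjusted p (Benjamini-Hochberg) under 0.05, 105 genes were higher in H460 (0.482% of the genes tested) and 43 were lower (0.198%). Of the higher genes 93 were protein-coding and 7 were lncRNAs, and of the lower genes 39 and 2. All 148 had H460 values that did not overlap those of the other 4 libraries, as did 20.9% of all tested genes above and 18.0% below. The smallest called log2 fold changes were 1.59 and -1.77, and 62 higher and 27 lower genes differed at least 16-fold by the fit. Leaving out any of the 6 libraries left 0 genes at an adjusted p under 0.05 by edgeR, with 1350 to 3428 genes at an unadjusted p under 0.05.

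The protein-coding genes with the largest higher calls had many reads in H460 and few or none elsewhere. CDH11, a cadherin best known from mesenchymal and bone-forming cells, stood at 564 and 456 TPM in H460, 0.116 and 0.0265 TPM in H1299, and 0.0442 and 0.041 TPM in A549. The gene lies on chromosome 16 from 64943753 to 65126112 (GRCh38). Both H460 values were high and the other 4 were near 0 (log2 fold change 12.90 ± 0.61 (SE), adjusted p = 0.0167). LAMA1, the laminin alpha chain of embryonic basement membranes, stood at 161 and 99.7 TPM in H460, 0.124 and 0.0966 TPM in H1299, and 0.0696 and 0.0536 TPM in A549 (log2 fold change 10.83 ± 0.43 (SE), adjusted p = 0.0127). EPB41L3, a protein that ties membrane receptors to the actin skeleton, had 49234 and 38327 reads in H460, against 19 and 7 in H1299 and 5 and 0 in A549 (log2 fold change 12.71 ± 1.16 (SE), adjusted p = 0.0389). SLITRK4, a synaptic adhesion gene, had 18819 and 18235 reads in H460, against 4 and 0 in H1299 and 0 and 0 in A549 (adjusted p = 0.0341). DPP10, a subunit of potassium channels, had 6357 and 5920 reads in H460, against 1 and 0 in H1299 and 0 and 0 in A549, a ratio of 23611 with an exact 95% interval from 4237 to 932666 that covers counting error only (adjusted p = 0.0189). EPB41L3, SLITRK4 and DPP10 passed the filter on low counts only through H460, so their direction was fixed.

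KCNE4, another potassium channel subunit, was at 128 and 92.3 TPM in H460 and at 0 to 0.0521 TPM in the other 4 libraries (adjusted p = 0.048). GJA5, a gap junction connexin of arteries and atrium, was at 20.1 and 16 TPM against 0 to 0.0109 TPM (adjusted p = 0.0316). TMEM100, a membrane protein of BMP signaling in lung endothelium, was at 37.8 and 40.5 TPM against 0 to 0.0226 TPM (adjusted p = 0.039). Each of these was therefore high in both H460 libraries and at or near 0 in all others. KCNE4, GJA5 and TMEM100 passed the filter only through H460, so their direction was fixed as well.

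**Figure D1:**
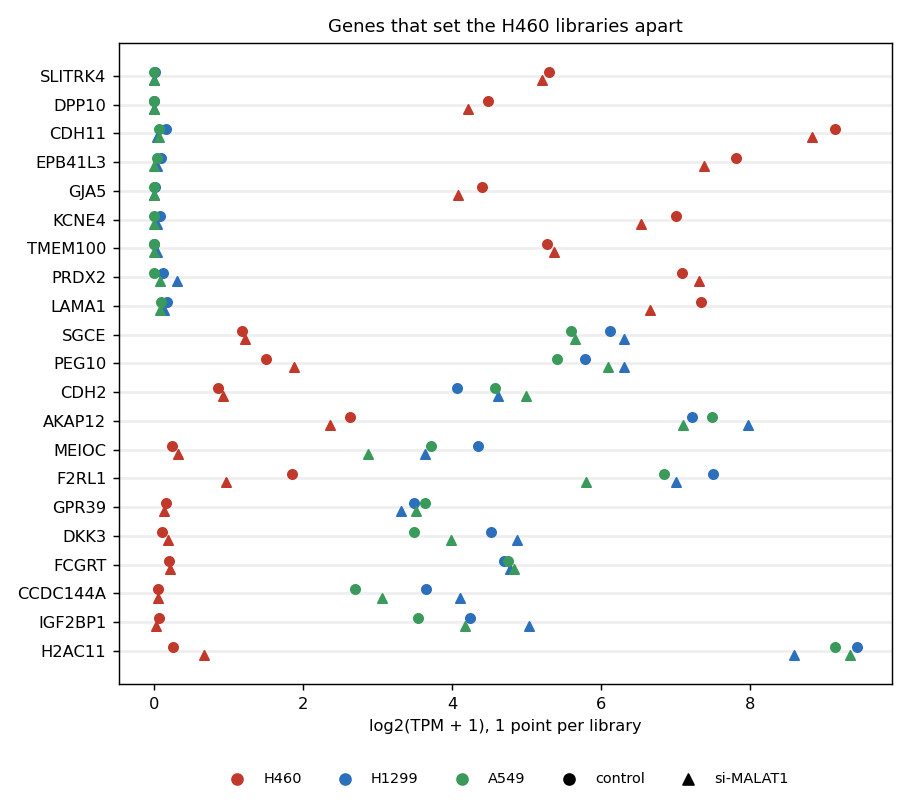
Deposited TPM as log2(TPM + 1) on the horizontal axis for 9 of the 10 protein-coding genes with the largest higher calls and 9 of the 10 with the largest lower calls in H460, with CDH2, PEG10 and SGCE added; each point is 1 library, colored by cell line, with circles for control and triangles for si-MALAT1. In every row both H460 points lie apart from the other 4, from SLITRK4 at the top, near 0 outside H460, to H2AC11 at the bottom, near 0 in H460.

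PRDX2, which encodes a cytosolic peroxide-reducing peroxiredoxin that most cell types express, was detected at a high level only in H460 among these lines. It had 7279 and 8863 reads in H460, against 5 and 11 in H1299 and 0 and 2 in A549 (log2 fold change 10.93 ± 1.00 (SE), adjusted p = 0.0391). It passed the filter on low counts only through H460, so its direction was fixed. The gene lies on chromosome 19 from 12796823 to 12801800, minus strand. Its neighbor RNASEH2A, a subunit of a ribonuclease, stood at 39.2 and 37.6 TPM in H460, 58.5 and 34.4 TPM in H1299, and 41.5 and 33.5 TPM in A549. JUNB, an AP-1 transcription factor on its other side, stood at 50.1 and 40.4 TPM in H460, 39.2 and 45.1 TPM in H1299, and 41.1 and 67.7 TPM in A549. Neither neighbor passed against either line. The other 5 peroxiredoxin genes were expressed in all 6 libraries. PRDX4 and PRDX6 were higher in H460 than in each line. For PRDX4 the log2 fold changes were 1.76 against H1299 and 1.21 against A549 (adjusted p = 0.000341 against H1299 and 0.00212 against A549), and for PRDX6 1.71 and 1.18 (adjusted p = 0.000239 against H1299 and 0.00141 against A549). PRDX1, PRDX3 and PRDX5 did not pass against both lines. The neighbors and relatives were looked up after the values of PRDX2 were seen. The sequence before the PRDX2 start is shown because the gene was at 11 reads or fewer in all 4 libraries of H1299 and A549. It is rich in CG pairs, the pairs that can be methylated, and the capitals mark them. It holds 38, more than 96.7% of 35116 RefSeq promoter windows of the same length, whose median is 11. Methylation was not measured here. The sequence is from RefSeq (GRCh38.p14), chr19:12801801-12802050, minus strand, the 250 bases before the start.
PRDX2: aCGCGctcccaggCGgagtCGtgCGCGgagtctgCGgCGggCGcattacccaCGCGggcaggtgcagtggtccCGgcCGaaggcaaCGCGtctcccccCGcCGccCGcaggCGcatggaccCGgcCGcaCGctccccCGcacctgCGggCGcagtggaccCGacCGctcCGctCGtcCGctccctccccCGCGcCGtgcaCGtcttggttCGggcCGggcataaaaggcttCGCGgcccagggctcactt

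Among lncRNAs, LINC00824 was at 158 and 134 TPM in H460 and at 0 to 0.0384 TPM elsewhere (log2 fold change 13.55 ± 1.03 (SE), adjusted p = 0.0308), and LOC105377703 at 4.51 and 3.23 TPM against 0 to 0.00553 TPM (adjusted p = 0.0473). LINC00824 and LOC105377703 passed the filter on low counts only through H460, so their direction was fixed. LOC101926943 was at 32.9 and 16.2 TPM against 0.166 to 0.606 TPM (adjusted p = 0.0429). The lower lncRNA calls were both weakly expressed, LOC284581 at 0.058 and 0.0286 TPM against 1.6 to 2.98 TPM and LOC107986148 at 0.32 and 0.787 TPM against 3.22 to 9.12 TPM (adjusted p = 0.0466 and 0.0477).

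Among the lower calls the largest was a histone gene. H2AC11, one of the replication-dependent H2A genes of the chromosome 6 cluster, had 6 and 18 reads in H460, against 19755 and 9589 in H1299 and 9747 and 12427 in A549 (log2 fold change -10.16 ± 0.86 (SE), adjusted p = 0.0339). Both H460 libraries were near 0 and the other 4 were high. H2AC11 passed the filter on low counts only through the other lines, so its direction was fixed. The neighbor H4C9, a histone H4 gene, had 0 and 0 reads in H460, against 1764 and 679 in H1299 and 2185 and 1549 in A549. H460 was at least 1071-fold lower against a floor of 3 reads over the H460 libraries. The neighbor H2BC11 was also lower than in each line (log2 fold changes of -1.44 against H1299 and -1.66 against A549, adjusted p = 0.0438 against H1299 and 0.0346 against A549), whereas H2BC12, at 479 and 561 TPM in H460, 635 and 341 TPM in H1299, and 418 and 493 TPM in A549, passed against neither. H4C9, H2BC11 and H2BC12 were looked up after the values of H2AC11 were seen. Of 21 histone genes tested from the list, 1 (H2AC11) was lower than in each line and 0 were higher, and the list median was 0.27, and the 21 summed to between 3705 and 9293 TPM with the H460 libraries at 6191 and 7948 TPM. Histone genes are nearly identical in sequence, so reads may be split between copies. The 250 bases before the H2AC11 start, chr6:27132793-27133042, plus strand in GRCh38.p14, are shown because the gene was near 0 in H460 alone. The capitals mark TATAAA on either strand, where 2 matches overlap each other 26 to 33 bases before the start and another lies 220 to 225 bases before it. The letters TATAAA occur in 10.7% of the windows.
H2AC11: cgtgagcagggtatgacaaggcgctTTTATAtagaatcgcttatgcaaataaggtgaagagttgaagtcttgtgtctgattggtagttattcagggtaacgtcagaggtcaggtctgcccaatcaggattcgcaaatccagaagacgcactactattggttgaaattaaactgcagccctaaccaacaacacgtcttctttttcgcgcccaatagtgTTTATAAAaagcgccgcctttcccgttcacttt

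The lower calls included receptors, named here by the size of their change or, for F2R, after its value was seen. F2RL1 and F2R, the protease-activated receptors 2 and 1, were at 2.61 and 0.955 TPM and 5.32 and 3.75 TPM in H460, and at 54.8 to 180.1 TPM and 40.2 to 63.9 TPM elsewhere (adjusted p = 0.0442 and 0.0482). GPR39, a zinc-sensing receptor, was at 0.113 and 0.098 TPM against 8.91 to 11.5 TPM (adjusted p = 0.0189). FCGRT, the neonatal Fc receptor that recycles albumin and IgG, was at 0.143 and 0.159 TPM in H460, 25 and 26.6 TPM in H1299, and 25.9 and 27.4 TPM in A549 (log2 fold change -7.08 ± 0.29 (SE), adjusted p = 0.0133). The other 4 libraries lay close together. DKK3, a secreted relative of the Wnt inhibitors, was at 0.0732 and 0.137 TPM against 10.2 to 28.3 TPM, and AKAP12, a scaffold for protein kinase A, at 5.16 and 4.16 TPM against 136 to 252 TPM (adjusted p = 0.0389 and 0.0339). CCDC144A and MEIOC, a meiosis regulator, were also among these calls (adjusted p = 0.0272 and 0.0429).

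The contrast of the control libraries alone was set beside this fit. It has 1 library per line and therefore no test. In it, 1180 genes were at least 4-fold higher in the H460 control than in each other control (5.42% of those tested) and 1068 at least 4-fold lower (4.91%). On log2(TPM + 1) the numbers were 333 and 108. The same measure in the si-MALAT1 libraries gave 1115 and 1045 genes. Of the higher genes, 922 passed in both, which is 78.1% of the control list and 82.7% of the si-MALAT1 list. For lower genes the shared number was 641, or 60% and 61.3%. Among the 148 genes of the 6-library fit, 99 of 105 higher and 42 of 43 lower passed 4-fold in the controls. All 148 had the same sign in both contrasts, which hold the same libraries as the fit.

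**Figure D2:**
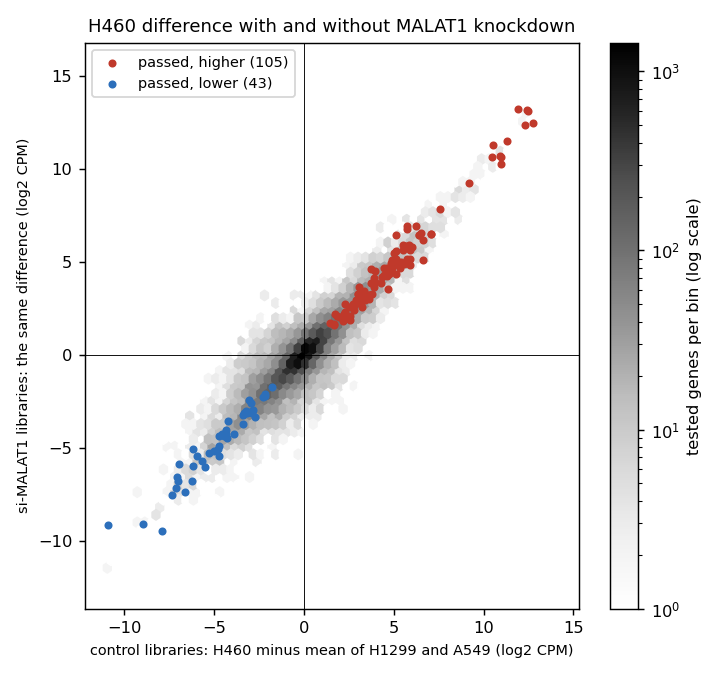
The difference between H460 and the mean of H1299 and A549 in log2 CPM (normalized counts), in the control libraries on the horizontal axis and in the si-MALAT1 libraries on the vertical axis; gray bins count all tested genes on a log scale. The 105 higher (red) and 43 lower (blue) genes of the 6-library fit lie along the diagonal in the upper right and lower left.

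To see which line each difference came from, H460 was also set against H1299 and against A549 in a fit with a term for each line. Against H1299, 5403 genes were higher (24.8%) and 5637 lower (25.9%), and against A549 3900 were higher (17.9%) and 3788 lower (17.4%). The median absolute log2 fold change was 0.924 against H1299, 0.656 against A549 and 0.865 between H1299 and A549. In this fit the spread is that of the response to si-MALAT1 between lines, on 2 residual degrees of freedom. A gene was called higher or lower than each line where it passed in both contrasts with the same sign, which held for 2323 higher (10.7% of the tested genes) and 1963 lower genes (9.02%). The contrasts share the H460 libraries and are not independent. In 928 genes H460 lay between the lines. Without the A549 control library the counts were 1240 and 1078, and without the A549 si-MALAT1 library 1318 and 1171. Gene lists are described by these calls, to be read against 10.7% and 9.02%, and by their median log2 fold change in the 6-library fit, beside -0.153 over all tested genes. That median was -2.30 for the alveolar, -1.69 for the basal, -7.88 for the liver and gut, -11.0 for the cancer-testis and -5.05 for the oncofetal list, but fitted values of genes at 0 in a group depend on the prior count. It was -0.16 for the neuroendocrine, -0.35 for the HOX, 0.04 for the developmental, 0.44 for the cytokine and -0.71 for the drug metabolism list, and for other lists it is given beside the counts where used. Any gene that passed the filter on low counts only through H460, or only through the other lines, had to differ.

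Genes with no read on one side are a special case, because a gene at 0 in all 4 other libraries leaves edgeR 0 residual degrees of freedom. With a mean of at least 2 TPM in H460, 39 genes had 0 reads in the 4 libraries of H1299 and A549, and 0 of them were among the 148, at adjusted p from 0.0944 to 0.238. They were picked out after the values were seen, and by 0 reads elsewhere, so that H460 is higher is fixed by the choice and their values are a description. LCN1, a lipocalin of tear fluid, had 4036 and 3286 reads in H460, HPGDS, the hematopoietic prostaglandin D synthase, 2797 and 2063 reads, and GPR65, a proton-sensing receptor, 2847 and 1956 reads. MACC1, a regulator of MET, had 1815 and 1977 reads. Against a floor of 3 reads over the 4 libraries these were at least 4694-fold, 3116-fold, 3079-fold and 2431-fold higher.

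In the other direction, 18 genes had 0 reads in both H460 libraries and at least 2 TPM in every other library, a choice that likewise fixes the direction. CAT, which encodes the peroxide-degrading enzyme catalase, had 0 and 0 reads in H460, against 2370 and 2418 in H1299 and 4648 and 7611 in A549. H460 was at least 2955-fold lower, against the same floor over its own 2 libraries. SFRP1, a secreted Wnt inhibitor, had 0 and 0 reads in H460, against 1373 and 1783 in H1299 and 2465 and 3122 in A549. NLRP2, an inflammasome and imprinting gene, had 0 and 0 reads in H460, against 1398 and 1598 in H1299 and 3406 and 4457 in A549, and the lncRNA HOTAIRM1 of the HOXA cluster 0 and 0 reads in H460, against 318 and 251 in H1299 and 412 and 247 in A549. A count of 0 allows up to 0.0438 CPM in the H460 control and 0.0461 in the H460 si-MALAT1 library, counting error only.

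**Figure D3:**
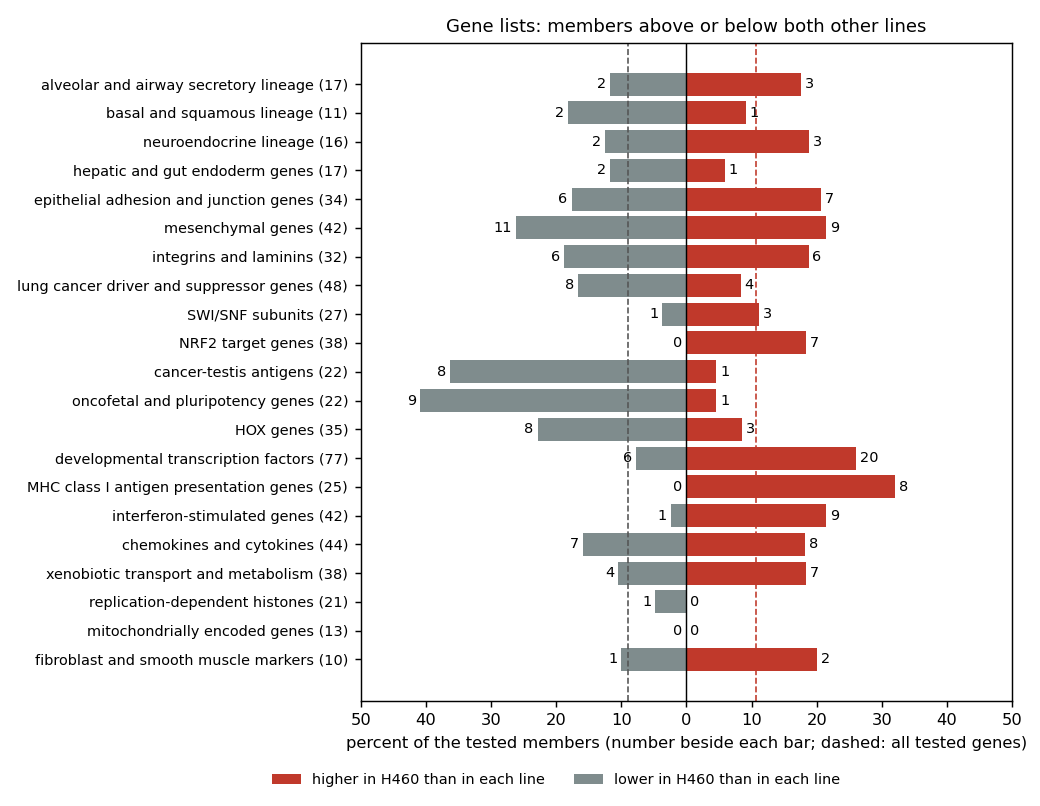
Percent of the tested members of each gene list shown, all with at least 10 tested members, that were higher (right, red) or lower (left, gray) in H460 than in each of H1299 and A549, with the number of members beside each bar and the number tested after the list name. Dashed lines mark the shares over all tested genes, 10.7% and 9.02%; MHC class I genes extend farthest to the right, and oncofetal and cancer-testis genes farthest to the left.

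The lineage lists were first used to check the label. Of 28 alveolar and airway genes, 17 had enough reads to be tested, and 3 were higher and 2 lower than in each line. NKX2-1, the lung lineage factor, had 0 reads in both H460 libraries and both A549 libraries and 28 and 30 reads in H1299. The surfactant genes SFTPA1, SFTPA2 and SFTPB and the club cell gene SCGB1A1 had 0 reads in all 6 libraries. They therefore do not separate H460 from H1299 or A549. HOPX, a homeodomain cofactor of alveolar type 1 cells, had 3913 and 4644 reads in H460, against 7 and 4 in H1299 and 0 and 0 in A549 (adjusted p = 3.61e-05 against H1299 and 6.69e-05 against A549). It passed the filter only through H460, so its direction was fixed. AGR2, a secretory-cell disulfide isomerase, stood at 395 and 368 TPM in H460, 0.125 and 0.0702 TPM in H1299, and 171 and 270.4 TPM in A549, and FOXA1, a pioneer factor of lung endoderm, at 7.78 and 9.34 TPM in H460, 0.727 and 0.675 TPM in H1299, and 3.32 and 4.61 TPM in A549. Both passed against each line, AGR2 by a small margin over A549 (1.11 on the log2 scale, adjusted p = 0.0117). FOXA3 and GATA6 were lower than in each line, with GATA6 at 0.447 and 0.383 TPM in H460.

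Of 20 basal and squamous genes 11 were tested. KRT5, KRT6A and KRT14 had 0 reads in every library, so they do not separate H460 from the other lines either. SERPINB5 (maspin) had 4611 and 4206 reads in H460, against 0 and 0 in H1299 and 0 and 0 in A549, at least 5652-fold higher. It passed the filter only through H460, so its direction was fixed (edgeR adjusted p = 0.0944 in the 6-library fit). ITGB4 and COL17A1, which anchor basal cells, were lower than in each line. In the neuroendocrine list, 16 of 26 were tested, with NCAM1, SCN3A and CHGA higher and CHGB and SNAP25 lower than in each line. CHGA was at 4.26 and 2.81 TPM and CHGB at 0 and 0.193 TPM in H460, whereas CHGB was at 4.03 to 14.6 TPM elsewhere. The neuroendocrine regulators INSM1 and NEUROD1 did not pass the filter. UCHL1, listed there too, was high in all lines, at 615 and 613 TPM in H460, 505 and 576 TPM in H1299, and 669 and 612 TPM in A549. Of 17 liver and gut genes tested, 1 was higher and 2 were lower than in each line. Against A549 14 were lower, beside 17.4% of all tested genes. Members that passed the filter on low counts only through A549 had to be lower in H460. CPS1, the first enzyme of the urea cycle and the 1 higher member, stood at 416 and 648 TPM in H460, 0.193 and 0.23 TPM in H1299, and 139.8 and 241 TPM in A549 and passed against both (adjusted p = 1.66e-05 against H1299 and 0.000596 against A549). Its level was near 0 in H1299 only. SERPINA1 (alpha-1 antitrypsin) had 0 reads in both H460 libraries and 3.14 to 13.3 TPM elsewhere. The lists hold no gene that marks large cell carcinoma itself, so the label of H460 could be checked only against the other programs. Of those, SFTPC had 6 reads and KRT17 had 5 in the H460 si-MALAT1 library, both were at 0 in the H460 control, and SFTPD was at 0 in both.

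Epithelial and mesenchymal genes split in both directions. Of 34 epithelial genes tested 7 were higher and 6 lower than in each line (median -0.595), and of 42 mesenchymal genes 9 were higher and 11 lower (median -0.123). CDH1 (E-cadherin) had 13 and 11 reads in H460 and 2 and 12 reads in H1299, against 4693 and 7373 reads in A549, and H460 and H1299 did not pass against each other (adjusted p = 0.217). CDH2 (N-cadherin), the cadherin usually gained when E-cadherin is lost, stood at 0.817 and 0.895 TPM in H460, 15.7 and 23.6 TPM in H1299, and 23 and 30.9 TPM in A549. It was among the 43 lower genes (log2 fold change -4.42 ± 0.34 (SE), adjusted p = 0.0308). The high cadherin of H460 was CDH11, described above. TWIST1, a transcription factor of mesenchymal cells, had 0 reads in H460 and 2.76 to 7.96 TPM elsewhere. It passed the filter only through the other lines, so its direction was fixed (edgeR adjusted p = 0.0733 in the 6-library fit).

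KRT19, a simple epithelial keratin, stood at 550.3 and 399 TPM in H460, 0.256 and 0.231 TPM in H1299, and 0.888 and 2.23 TPM in A549 (adjusted p = 4.06e-05 against H1299 and 0.000109 against A549). SPINT2 and DSP, a protease inhibitor and the plaque protein of desmosomes, were at 0.364 and 0.504 TPM and 0.123 and 0.0522 TPM in H460, below 7.31 to 243 TPM and 4.37 to 25.6 TPM, and both were lower than in each line. VIM, the mesenchymal intermediate filament, lay between the lines at 842 and 721 TPM in H460, 1844 and 2120.0 TPM in H1299, and 446 and 547 TPM in A549. CCN2, a matricellular growth factor, was at 91.8 and 42.1 TPM in H460, 6.39 and 4.32 TPM in H1299, and 10.2 and 3.36 TPM in A549 (log2 fold change 3.79 ± 0.26 (SE), adjusted p = 0.0251). FN1 (fibronectin) was at 1031 and 799.7 TPM in H460, 17.3 and 48.7 TPM in H1299, and 215 and 382 TPM in A549 (adjusted p = 0.000296 against H1299 and 0.0097 against A549). SNAI2 and ZEB2 were higher and ZEB1, AXL and SPARC lower than in each line.

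Of 32 integrins and laminins, 6 were higher and 6 lower than in each line (median -0.288), and 5 of the 6 higher members were laminins. LAMA1, LAMB1, LAMC1, LAMB2 and LAMC3 passed, with LAMC1 at 347 and 333 TPM in H460 against 29.6 to 99.6 TPM and LAMB1 at 203 and 134 TPM against 28.4 to 102 TPM. ITGB8, a receptor that activates latent TGF-beta, was at 16.9 and 21.7 TPM against 0.395 to 3.15 TPM (adjusted p = 0.000228 against H1299 and 0.000152 against A549). The 6 lower members were all integrins, ITGA2, ITGA3, ITGA4, ITGB3, ITGB4 and ITGB6. ITGA3, the alpha chain of a laminin receptor, stood at 11 and 5.27 TPM in H460, 207 and 213 TPM in H1299, and 92.6 and 53.7 TPM in A549 (adjusted p = 0.000105 against H1299 and 0.000598 against A549).

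Of 48 lung cancer driver and suppressor genes tested, 4 were higher and 8 lower than in each line (median -0.424), and 0 were among the 148. The shares over all tested genes were 10.7% higher and 9.02% lower. MYC, the growth-promoting transcription factor, stood at 52.6 and 41.2 TPM in H460, 15.8 and 12.1 TPM in H1299, and 28.7 and 18.9 TPM in A549 (log2 fold changes of 2.13 against H1299 and 1.32 against A549, adjusted p = 0.000197 against H1299 and 0.00166 against A549). SMARCA4, an ATPase of the SWI/SNF remodeler, was at 16.4 and 12.1 TPM in H460, 6.47 and 5.87 TPM in H1299, and 2.24 and 2.2 TPM in A549 (adjusted p = 0.000591 against H1299 and 0.000112 against A549). Both genes had the H460 values above the other 4, and SMARCA4 was lowest in A549. RASSF1 was higher as well. Lower than in each line were the cyclins CCND1, CCND3 and CCNE1, the kinases AKT2, FGFR1 and PDGFRA, and ERBB3, with CCND1 at 14.6 and 21.4 TPM against 41.3 to 102 TPM.

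NRAS, a RAS family GTPase, was at 15.4 and 22.5 TPM in H460, 46.4 and 88.2 TPM in H1299, and 24 and 36.4 TPM in A549 (adjusted p = 0.000548 against H1299 and 0.0859 against A549). STK11 and KEAP1, suppressors of energy-stress and oxidative-stress signaling, were at 11.7 and 12.2 TPM and 20.6 and 24.9 TPM in H460, with adjusted p of 0.369 and 0.986 in the 6-library fit. CDKN2A, the cyclin-dependent kinase inhibitor, had 0 reads in all libraries of H460 and A549 and 2938 and 2679 reads in H1299. Its neighbor MTAP, often deleted with it, was at 17.6 and 11.7 TPM in H460, 18.1 and 12.1 TPM in H1299, and 2.99 and 2.09 TPM in A549 and higher in H460 than in A549 (adjusted p = 8.78e-05), with 0.0889 against H1299. EGFR, MET and PIK3CA did not pass in the 6-library fit (adjusted p = 0.731, 0.631 and 0.474).

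Of 27 SWI/SNF subunits, 3 were higher (SMARCA4, SMARCA2 and SMARCD3) and 1 lower (SS18) than in each line, with a list median of -0.258. Over all tested genes, 10.7% were higher and 9.02% lower than in each line. SMARCA2, the second ATPase of the complex, stood at 9.58 and 8.98 TPM in H460, 4.74 and 7 TPM in H1299, and 6.17 and 8.4 TPM in A549 (adjusted p = 0.00252 against H1299 and 0.0165 against A549). Its largest other library, 8.4 TPM, came close to the H460 values.

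**Figure D4:**
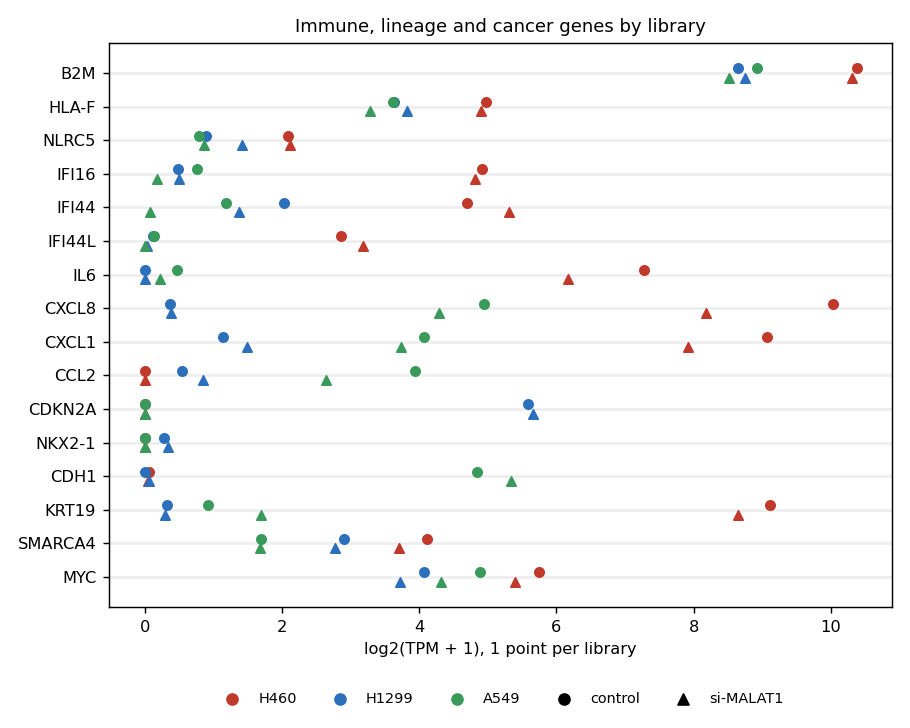
Deposited TPM as log2(TPM + 1) for immune, lineage and cancer genes named in the text; each point is 1 library, colored by cell line, with circles for control and triangles for si-MALAT1. B2M, HLA-F, IFI16, IL6, CXCL8 and KRT19 have both H460 points to the right of the other 4, CCL2 and CDKN2A have the H460 points at 0, and CDH1 is near 0 in H460 and H1299.

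NRF2 targets were described against each line separately. As background, NRF2 drives detoxification genes when KEAP1 is inactive. Genotype cannot be told apart from cell line here, and a role of KEAP1 mutation was not tested. All 38 NRF2 targets were tested, and 35 were higher in H460 than in H1299 and 0 lower, whereas 7 were higher and 15 lower than in A549. The median log2 fold change of the list was 0.68 in the 6-library fit, 3.15 against H1299 and -0.0958 against A549, beside -0.0354 and 0.00699 over all tested genes. AKR1B10, an aldo-keto reductase, stood at 900.2 and 757 TPM in H460, 0.224 and 0.229 TPM in H1299, and 3329 and 2358 TPM in A549. SLC7A11, the cystine transporter, was at 125 and 102 TPM in H460, 4.58 and 1.33 TPM in H1299, and 67.7 and 35.9 TPM in A549 and passed against both (adjusted p = 0.000232 against H1299 and 0.0223 against A549), as did EPHX1, CYP4F11, NR0B1, SRXN1, ABCB6 and ME1. CDKN1A, a cell cycle inhibitor, was at 25.4 and 31.6 TPM in H460, 26.5 and 45.6 TPM in H1299, and 45.7 and 46.1 TPM in A549 and passed against neither.

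Of 40 cancer-testis antigens, genes normally limited to germ cells, 22 were tested, and 8 were lower and 1 higher than in each line. Against H1299 20 of the 22 were lower, beside 25.9% of all tested genes, and against A549 8, beside 17.4%. The list medians were -12.0 and -0.0449. Members that passed the filter on low counts only through H1299 had to be lower in H460, so these counts are a description. MAGEB2 was the higher member, with 2182 and 2799 reads in H460, against 0 and 0 in H1299 and 0 and 0 in A549 (adjusted p = 0.000139 against H1299 and 0.000253 against A549). MAGEB2 passed the filter only through H460, so its direction was fixed. In the fit that set H460 against both other lines together, its edgeR adjusted p was 0.105. MAGEA3 and MAGEA6 had 0 reads in both H460 libraries, 5471 and 4879 reads and 5213 and 4673 reads in H1299, and 13 and 17 reads and 60 and 86 reads in A549. XAGE1A was at 0.217 and 0.186 TPM in H460, 217 and 242 TPM in H1299, and 64.7 and 79 TPM in A549. These genes have near-identical copies, and the split of reads between copies is uncertain. PRAME, which has no such copy among the calls, was at 15.1 and 14.3 TPM in H460, 148 and 176 TPM in H1299, and 72.3 and 61.5 TPM in A549 (adjusted p = 7.02e-05 against H1299 and 0.000569 against A549).

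Of 22 oncofetal and pluripotency genes tested out of 34, 9 were lower and 1 higher than in each line, and IGF2BP1 and PEG10 were among the 43 lower genes. IGF2BP1, a fetal RNA-binding protein that stabilizes mRNAs, had 23 and 11 reads in H460, against 9045 and 14005 in H1299 and 3248 and 5798 in A549 (log2 fold change -8.81 ± 0.82 (SE), adjusted p = 0.0397). LIN28B, which blocks let-7 maturation, had 0 and 0 reads in H460, against 11706 and 21613 in H1299 and 934 and 1667 in A549, and HMGA2, a chromatin protein that let-7 represses, had 5 and 0 reads in H460, against 38083 and 35789 in H1299 and 1889 and 2603 in A549. Both were lower than in each line, HMGA2 at adjusted p = 2.49e-05 against H1299 and 8.28e-05 against A549. LIN28B and HMGA2 passed the filter only through the other lines, so their direction was fixed (edgeR adjusted p = 0.132 for LIN28B in the 6-library fit). IGF2BP2, IGF2, MEG3, ALDH1A3 and CD44 were the others. KLF4 was higher, at 30.6 and 22.4 TPM against 2.47 to 8.87 TPM.

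Of 35 HOX genes tested, which set position along the body axis, 8 were lower and 3 higher than in each line. Against H1299 17 were lower and 8 higher, with a list median of -1.33. Against A549 8 were lower and 7 higher, with a list median of 0.202. HOXB2, HOXB3, HOXB4, HOXB7 and HOXB8 of the HOXB cluster were lower, with HOXB4 at 0.152 and 0.203 TPM in H460, 23.4 and 27.7 TPM in H1299, and 0.414 and 0.65 TPM in A549. HOXA11 was at 2.99 and 2.82 TPM against 0.0385 to 0.432 TPM, and HOXA6 and HOXB13 were the other higher members. Of 77 developmental transcription factors outside the HOX clusters, 20 were higher and 6 lower than in each line. PAX9, a factor of foregut and tooth development, was among the 105 higher genes at 3.53 and 4.01 TPM in H460, 0.516 and 0.586 TPM in H1299, and 0.492 and 0.501 TPM in A549 (log2 fold change 3.17 ± 0.29 (SE), adjusted p = 0.0389). FOXF1, a factor of lung mesenchyme, had 672 and 597 reads in H460, against 4 and 11 in H1299 and 0 and 0 in A549, and its lncRNA neighbor FENDRR had 903 and 859 reads in H460 and 0 elsewhere. FOXF1 and FENDRR passed the filter only through H460, so their direction was fixed. PAX3, SOX6, MSX1, MSX2, PITX1, ETV1 and ETV4 were also higher, and TBX20, NKX2-5, GATA3 and RUNX3 lower than in each line.

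MHC class I presents peptides to T cells. Of 25 genes of this pathway, 8 were higher than in each line and 0 lower, and the list median was 0.61 in the 6-library fit, 0.612 against H1299 and 0.799 against A549, beside -0.0354 and 0.00699 over all tested genes. B2M, the invariant chain of MHC class I, stood at 1329 and 1269 TPM in H460, 400.2 and 427 TPM in H1299, and 482 and 364 TPM in A549 (log2 fold change 1.97 ± 0.19 (SE), adjusted p = 0.0429). Both H460 values lay above all others, which were close together. HLA-F was at 30.6 and 29 TPM in H460, 11.5 and 13.1 TPM in H1299, and 11.2 and 8.77 TPM in A549 (adjusted p = 0.00064 against H1299 and 0.000795 against A549). NLRC5, the transactivator of these genes, was at 3.25 and 3.32 TPM in H460, 0.863 and 1.68 TPM in H1299, and 0.726 and 0.822 TPM in A549 (adjusted p = 0.000467 against H1299 and 0.00046 against A549). PSMB8, TAP1, PDIA3 and CANX of peptide processing and loading were also higher. HLA genes are polymorphic, so reads of different alleles may align with unequal success. CD274, which encodes the immune checkpoint ligand PD-L1, was among the 105 higher genes at 28 and 11.6 TPM in H460, 0.502 and 0.596 TPM in H1299, and 0.241 and 0.937 TPM in A549 (log2 fold change 5.94 ± 0.46 (SE), adjusted p = 0.0308).

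Of 42 interferon-stimulated genes 9 were higher and 1 lower than in each line (median 0.114). The list summed to 566.5 and 558.0 TPM in H460, 566.0 and 359.0 TPM in H1299, and 983.3 and 327.5 TPM in A549. The largest sum was therefore that of the A549 control. IFI16, a DNA sensor, was at 29.2 and 27.2 TPM in H460, 0.403 and 0.417 TPM in H1299, and 0.699 and 0.137 TPM in A549 (log2 fold change 6.31 ± 0.57 (SE), adjusted p = 0.0389). IFI44 was at 25 and 38.6 TPM in H460, 3.08 and 1.59 TPM in H1299, and 1.27 and 0.0578 TPM in A549 (adjusted p = 0.00392 against H1299 and 0.00282 against A549), and IFI44L at 6.23 and 8.11 TPM in H460, 0.0882 and 0.0214 TPM in H1299, and 0.0984 and 0.00864 TPM in A549 (adjusted p = 0.00057 against H1299 and 0.00105 against A549). EPSTI1, DHX58, ISG20, IFITM2, IFITM3 and SAMD9L were also higher, and HERC5 lower. STING1, which relays the signal of cytosolic DNA, lay between the lines.

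Secreted factors went in both directions, 8 higher and 7 lower of 44 tested. IL6, an inflammatory cytokine, stood at 154 and 70.7 TPM in H460, 0 and 0 TPM in H1299, and 0.388 and 0.167 TPM in A549 (adjusted p = 2.15e-05 against H1299 and 4.82e-05 against A549). CXCL8, a neutrophil chemokine, was at 1049 and 290.0 TPM in H460, 0.294 and 0.303 TPM in H1299, and 29.9 and 18.6 TPM in A549 (adjusted p = 3.64e-05 against H1299 and 0.000324 against A549), and CXCL1, another one, at 538 and 241 TPM in H460, 1.2 and 1.82 TPM in H1299, and 15.7 and 12.4 TPM in A549 (adjusted p = 6.56e-05 against H1299 and 0.000325 against A549). The H460 control was above the H460 si-MALAT1 library for all 3, and both were above the other lines. IL1A, CXCL2, FGF2, TGFB2 and VEGFA were the other higher members. CCL2, a monocyte chemokine, had 0 and 0 reads in H460, against 20 and 30 in H1299 and 372 and 153 in A549. It passed the filter only through the other lines, so its direction was fixed. BMP4, BMP7, IL11, IL32, PDGFB and TNFSF15 were also lower than in each line. TNFAIP3, an inhibitor of NF-kB induced by NF-kB itself, was among the 105 higher genes at 82.3 and 57.6 TPM in H460, 1.6 and 2.93 TPM in H1299, and 2.05 and 2.35 TPM in A549 (log2 fold change 5.37 ± 0.29 (SE), adjusted p = 0.0189).

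Because CXCL1, CXCL8 and B2M are known to respond to NF-kB, the bases before their starts are shown, and capitals mark matches to NF-kB motifs and, in CXCL8, TATAAA. The motifs searched on both strands were the NF-kB consensus and the overlapping GGANTTTCC, which occur in 5.21% and 1.45% of 35116 RefSeq windows of 250 bases. CXCL1 (chr4:73869143-73869392, plus strand) has both 69 to 79 bases before the start. CXCL8 (chr4:73740319-73740568, plus strand) has GGANTTTCC 83 to 91 bases before it and TATAAA at 26 to 31. The 225 bases shown for B2M (chr15:44711267-44711491, plus strand) hold both on the other strand, 91 to 100 bases before the annotated start. The sequences are from RefSeq, GRCh38.p14. These are matches of letters, and binding was not measured. All of the genes shown were higher in H460. The bases before CCL2 and IL32, which were lower, and before IL6 and TNFAIP3 are not shown. A role of NF-kB was not tested.
CXCL1: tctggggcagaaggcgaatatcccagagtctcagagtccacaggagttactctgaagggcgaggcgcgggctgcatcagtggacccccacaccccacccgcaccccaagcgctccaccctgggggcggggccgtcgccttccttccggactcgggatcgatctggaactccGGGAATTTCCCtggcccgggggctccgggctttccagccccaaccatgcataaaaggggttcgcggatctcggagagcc
CXCL8: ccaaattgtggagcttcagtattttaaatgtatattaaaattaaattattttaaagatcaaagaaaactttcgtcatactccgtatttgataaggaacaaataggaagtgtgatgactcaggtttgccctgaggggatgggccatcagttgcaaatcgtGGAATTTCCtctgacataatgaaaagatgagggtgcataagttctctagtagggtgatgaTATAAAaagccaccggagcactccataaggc
B2M: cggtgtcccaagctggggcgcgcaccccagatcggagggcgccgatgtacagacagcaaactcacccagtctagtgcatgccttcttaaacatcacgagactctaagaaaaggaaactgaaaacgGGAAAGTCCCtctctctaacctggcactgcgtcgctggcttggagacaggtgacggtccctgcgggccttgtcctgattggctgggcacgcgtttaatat

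Of 38 drug and aldehyde metabolism genes tested, some of them also in the NRF2 list, 27 were higher and 8 lower than in H1299, 7 higher and 22 lower than in A549, and 7 higher and 4 lower than in each line. The glutathione transferases GSTM1 and GSTM3 were among the 105 higher genes, GSTM1 at 22.4 and 28.2 TPM in H460, 0.499 and 0.48 TPM in H1299, and 0.387 and 0.169 TPM in A549 (log2 fold change 6.31 ± 0.55 (SE), adjusted p = 0.0365) and GSTM3 at 43.2 and 44.6 TPM in H460, 6.03 and 7.87 TPM in H1299, and 4.06 and 3.68 TPM in A549 (log2 fold change 3.35 ± 0.35 (SE), adjusted p = 0.0473). GSTM2 and GSTM4 were higher than in each line as well, and reads may be split among these similar genes. ALDH1A1, a retinal dehydrogenase used as a stem cell marker, stood at 171 and 150.4 TPM in H460, 0.0977 and 0.84 TPM in H1299, and 5296 and 3990.0 TPM in A549 and lay between the lines. The drug exporter ABCG2 was at 24.1 and 18.2 TPM in H460, 0.434 and 0.752 TPM in H1299, and 37.9 and 26.6 TPM in A549, above H1299 (adjusted p = 0.000149) and with 0.532 against A549. ABCB1, another drug exporter, was lower than in each line at 0.13 and 0.107 TPM against 1.88 to 8.87 TPM (adjusted p = 0.00019 against H1299 and 0.000931 against A549). CYP24A1, which degrades vitamin D, was at 0.285 and 0.174 TPM in H460, 0.519 and 0.962 TPM in H1299, and 987 and 1001 TPM in A549, lower in H460 than in each line (adjusted p = 0.0174 against H1299 and 4.27e-05 against A549) and high in A549 only.

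A run of neighbors on chromosome 7 was lower in H460. PEG10, SGCE and PPP1R9A, paternally expressed (PEG10 and SGCE) or imprinted in some tissues (PPP1R9A), lie next to each other, and all were among the 43 lower genes. PEG10, a domesticated retrotransposon gene, stood at 1.82 and 2.67 TPM in H460, 54.2 and 78 TPM in H1299, and 41.4 and 67.3 TPM in A549 (log2 fold change -4.41 ± 0.25 (SE), adjusted p = 0.0193). SGCE, a sarcoglycan that starts 0.1 kb away on the opposite strand, was at 1.26 and 1.32 TPM in H460, 68.7 and 78.6 TPM in H1299, and 47.5 and 49.4 TPM in A549 (log2 fold change -4.32 ± 0.36 (SE), adjusted p = 0.0339). PPP1R9A, 250.9 kb on the other side, was at 1.25 and 1.8 TPM in H460, 14.4 and 22.5 TPM in H1299, and 12.7 and 18.1 TPM in A549 (log2 fold change -3.14 ± 0.21 (SE), adjusted p = 0.0251). On the flanks, 4 more genes were lower than in each line, as were 9.02% of all tested genes, and none of the 4 was among the 43. For CASD1 the log2 fold changes were -1.14 against H1299 and -1.52 against A549, for VPS50 -1.66 and -0.85, for PON2 -0.45 and -2.97, and for SLC25A13 -1.21 and -0.52. The H460 values of PON2 overlapped those of the other lines. CALCR, TFPI2, GNGT1, GNG11 and BET1, between VPS50 and CASD1, did not pass against both lines, nor did PON1 and DYNC1I1 beyond PPP1R9A. PON3, ASB4 and PDK4, also there, lay between the lines. Their log2 fold changes were 6.60, 8.64 and 4.84 against H1299, and -8.60, -3.87 and -2.03 against A549. The neighbors were examined after these values were seen, and whether reads were counted by strand is not given, so reads where CASD1 and SGCE overlap on opposite strands cannot be told apart.

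By chromosome, 28.1% of 523 tested protein-coding genes on chromosome 8 were lower in H460 than in each line, beside 10.9% of all 15192 tested protein-coding genes, and 8.8% were higher. The lower genes lay mostly beyond 45 Mb, a split chosen after the values were seen. There 127 of 341 genes (37.2%) were lower and 20 higher, with a median log2 fold change of -1.10 against H1299 and -0.56 against A549. Before 45 Mb, 20 of 182 were lower and 26 higher. MYC, which lies in the stretch beyond 45 Mb, was one of the 20 higher genes, and the lncRNA LINC00824 described above lies on chromosome 8 too. Chromosomes 1, 13 and X had the largest shares of higher genes, 21.2%, 18.5% and 19.8%, beside 12.3% of all tested, and chromosome 19 had 4.27% higher and 16.1% lower.

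**Figure D5:**
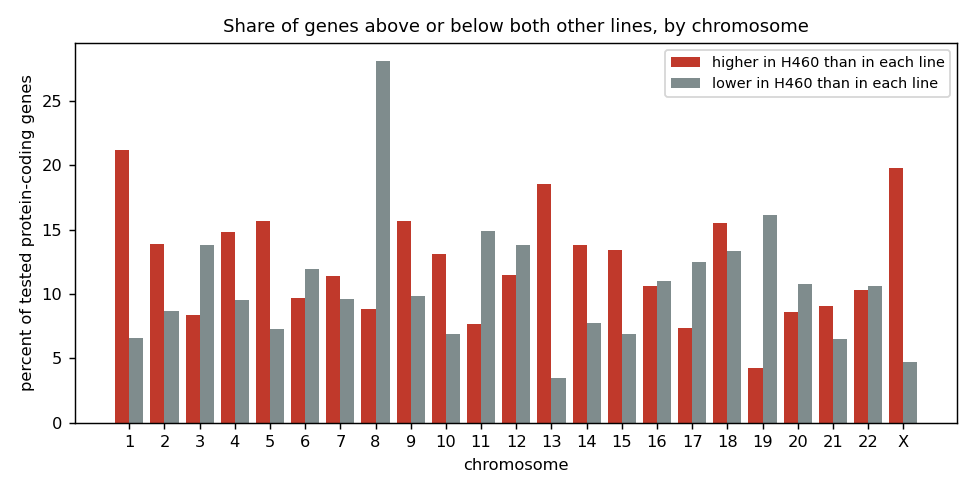
Percent of tested protein-coding genes per chromosome that were higher (red) or lower (gray) in H460 than in each of H1299 and A549. Chromosome 8 has the tallest gray bar at 28.1%, and chromosome 1 the tallest red bar at 21.2%.

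Among 517 windows of 5 Mb with at least 8 tested protein-coding genes, the lowest medians of the 6-library log2 fold change were -8.71 (chromosome 4, 65 to 70 Mb), -5.62 (chromosome 19, 20 to 25 Mb) and -1.82 (chromosome 7, 60 to 65 Mb). These medians came from 1 line or the other in the first 2 windows. In the chromosome 4 window, with -0.0196 against H1299, the genes with the largest values were UGT2A3, UGT2B11 and UGT2B15, which conjugate steroids and drugs, with 0 reads in H460 and H1299. In the chromosome 19 window, a cluster of KRAB zinc finger genes, the median was -6.33 against H1299 and -0.00703 against A549, and 2 of 29 genes were lower than in each line. ZNF43 was one of them, with 0 and 0 reads in H460, against 3997 and 3407 in H1299 and 269 and 347 in A549. ZNF736 and ZNF727 of the chromosome 7 window had 0 reads in H460 and A549. The highest medians were 1.74 (chromosome 2, 225 to 230 Mb), 1.72 (chromosome 12, 80 to 85 Mb) and 1.21 (chromosome 1, 195 to 200 Mb), and 8 of 14, 5 of 10 and 6 of 12 genes in them were higher than in each line. DNER, a Notch ligand in the chromosome 2 window, was at 91.7 and 73.7 TPM in H460, 1.22 and 1.84 TPM in H1299, and 0.525 and 0.587 TPM in A549 (log2 fold change 6.65 ± 0.63 (SE), adjusted p = 0.041), and its neighbors DAW1 and PID1 were higher than in each line. ACSS3, an acyl-CoA synthetase in the chromosome 12 window, was at 13.5 and 10.4 TPM against 0.0775 to 0.359 TPM (adjusted p = 2.15e-05 against H1299 and 5.42e-05 against A549).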

How the data were processed

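RNA of 6 cultures of established NSCLC lines was sequenced, 1 library for each line and treatment. The authors trimmed the reads with Trimmomatic, aligned them with HISAT2 and quantified genes with StringTie, and the submitters' processing notes give bcl2fastq 2.20.0, HISAT2 2.1.0 and StringTie 1.3.4b. The paper's methods name a different StringTie version. The notes list the builds hg19 and GRCh38, and the deposited table uses GRCh38 with an NCBI annotation. The deposited read counts per gene are raw, the deposited TPM values are the authors' levels per length and per library, and FPKM values were not used. The table also holds 18 columns of per-sample values of samples from another study, which were not used. Read strand in the counting is not given in the sources used here.

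Read counts were tested with edgeR 4.0.16 (R 4.3.3): TMM factors (0.890 to 1.089), filterByExpr, the quasi-likelihood F test, Benjamini-Hochberg adjustment over 21771 genes and a threshold of 0.05. The design was H460 against the other 4 libraries with treatment as covariate. A fit with a term for each cell line gave the contrasts against H1299 and A549. The SE is the log2 fold change divided by the square root of F. The contrast of controls used log2 CPM with a prior count of 2. DESeq2 1.42.0 and limma 3.58.1 on log2(TPM + 1) were alternatives. Python 3.11.15 with pandas 2.3.3, numpy 2.4.6, scipy 1.17.1 and matplotlib 3.10.9 did the rest. A floor of 3 reads and exact 95% intervals cover counting error only. The code was tested on simulated data.

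The members and the 25 gene lists were chosen with earlier results of these data known, and 808 of 810 list symbols matched. Named genes were the 10 protein-coding genes per direction with the largest called fold change, no overlap and a mean of at least 10 TPM on the higher side, 3 lncRNAs at 2 TPM or more, up to 4 called members of each list (or 2 by level), a fixed set of cancer genes, and genes of the 3 highest and 3 lowest windows of 5 Mb. After the values were seen, list members that passed against each line, genes with no read on one side and the neighbors of named genes were added. Sequences are from RefSeq tables (GRCh38.p14). XIST, Y-linked genes and results that need items withheld for evaluation are not reported here.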

Additional observations from a re-analysis of the deposited data

How the results depend on the processing

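The count of genes in the 6-library comparison (105 higher, 43 lower) depended on the test. DESeq2 gave 1792 higher and 2483 lower, limma on log2(TPM + 1) 669 and 344, edgeR with no treatment covariate 622 and 495, and edgeR with a term for each cell line 5068 and 4046. The controls alone and the si-MALAT1 libraries alone gave 0 and 0 by edgeR, with 860 and 851 genes at an unadjusted p under 0.05, and leaving out each library in turn gave 0 to 0 in each direction, with fewer residual degrees of freedom. RLE factors (105 and 43), upper-quartile factors (104 and 45) and no filter on low counts (128 and 51) moved the counts by less than 1.5 times. Of 36 named called genes, 36 kept their call with RLE factors, DESeq2, limma and a term for each line, 34 with upper-quartile factors, 35 without the filter and 35 without the covariate, and none changed sign. The counts against each line, whose alternatives were chosen after seeing the data, ranged over left-out libraries from 1240 to 2229 higher and from 1078 to 1781 lower, with the lowest values without the A549 control. The control contrast gave 333 higher and 108 lower genes on log2(TPM + 1), where weakly expressed genes cannot reach 4-fold. The cause of the other changes was not tested. No paired analysis was possible because each line has 1 library per treatment and the labels carry no replicate numbers. Depths of 42506818 to 68515992 reads put the limit of a count of 0 between 0.0438 and 0.0706 CPM, before normalization.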

Other observations

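Other genes were among the 105 higher and 43 lower ones. LGALS3 (galectin 3), a galactose-binding lectin, stood at 676 and 545 TPM in H460, 25.9 and 31.2 TPM in H1299, and 13.8 and 14.5 TPM in A549 (log2 fold change 5.11 ± 0.44 (SE), adjusted p = 0.0357). NAMPT, which makes the NAD precursor nicotinamide mononucleotide, stood at 630.3 and 589 TPM in H460, 34.1 and 46.4 TPM in H1299, and 33.4 and 34.3 TPM in A549 (log2 fold change 4.37 ± 0.21 (SE), adjusted p = 0.0167), with a processed pseudogene that may share its reads. CTSC, a lysosomal protease, was at 538 and 437 TPM in H460 against 44.5 to 61.1 TPM, and SLC39A8, a zinc and manganese importer, at 554 and 403 TPM against 12.3 to 30.7 TPM (edgeR adjusted p = 0.0193 and 0.0381). MCAM, a cell adhesion molecule of melanoma and endothelium, was at 156 and 97.5 TPM against 0.891 to 2.51 TPM, NOTCH3 at 65.1 and 33.5 TPM against 4.33 to 8.3 TPM, and the growth factor BDNF at 35.3 and 36.9 TPM against 10.6 to 13.3 TPM (edgeR adjusted p = 0.0226, 0.0477 and 0.0425). Among the lower genes, TPM2, a tropomyosin, was at 8.9 and 9.82 TPM against 219 to 239 TPM, and COL18A1, the basement membrane collagen that yields endostatin, at 3.11 and 2.41 TPM against 29.1 to 40.6 TPM (edgeR adjusted p = 0.0184 and 0.0226). TLE1, a transcriptional corepressor, was at 1.18 and 0.882 TPM against 15 to 17.5 TPM (edgeR adjusted p = 0.0251). These genes were chosen after their values were seen.

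PTPRC, CD3D, CD3E, CD2, MS4A1, CD163 and NKG7 of leukocytes, CDH5 of endothelium and HBD, HBG1, HBG2 and ALAS2 of red cells had 0 reads in all 6 libraries. Of 15 leukocyte markers 5 were tested, with CD14 higher and ITGAM lower in H460 than in each line, and the list summed to between 19.9 and 48.6 TPM. Of 10 endothelial markers 5 were tested, with KDR and EGFL7 higher and a list sum of 33.9 to 63.4 TPM. Of 13 fibroblast and smooth muscle markers 10 were tested, with PDGFRB and LUM higher and PDGFRA lower and a list sum of 2.29 to 25.8 TPM. Of 10 red cell markers 3 were tested, 0 passed against each line, and the list summed to 1.48 TPM at most.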
